A study of Homo sapiens with 56 samples.

Results

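The genes described here are 45 genes of the lysosome and of autophagy, out of 21595 named genes in the deposited table. They were taken by gene symbol from a fixed list of lysosomal enzymes and membrane proteins, subunits of the V-ATPase proton pump, MiT/TFE transcription factors and autophagy genes. Each was found in the table. They were measured by RNA-seq of poly-A RNA in 56 libraries of cultured mantle cell lymphoma cells, a B-cell lymphoma. There were 15 libraries of MINO-P, 13 of MINO-VR, 15 of JEKO-1 and 13 of Z138, and no label explains the letters P and VR. The series asks about inhibition of BIRC5 and MCL-1 in drug-resistant cells. Single treatments were CON (untreated, 5 libraries), CLF (6), BTZ (6), IBR (11), YM155 (4), which suppresses expression of the survival gene BIRC5, and S63845 (6), an inhibitor of the survival protein MCL-1. Combinations were IBR_CLF (8), BTZ_CLF (4), IBR_YM155 (2), BTZ_YM155 (2), IBR_S63845 (1) and BTZ_S63845 (1). CLF, BTZ and IBR are given as the labels write them, and neither doses nor treatment times are in the labels. The 56 libraries fall into 37 groups of line and treatment, of which 22 hold 1 library, 11 hold 2 and 4 hold 3. The labels do not say whether replicates came from separate cultures, so p-values measure only the spread between these libraries, which may be technical.

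Lysosomes are acidic organelles in which hydrolases break down proteins, sugar chains and lipids. The V-ATPase pumps protons into them, and autophagy delivers cytoplasm and organelles to them inside vesicles coated with proteins of the LC3 and GABARAP families, with receptors such as SQSTM1 (p62) binding the cargo. The transcription factors TFEB, TFE3 and MITF bind an E-box with the core CACGTG, known in lysosomal promoters as the CLEAR element. The kinase complex mTORC1, recruited to the lysosome by the Rag GTPases and regulated by the FLCN-FNIP complex, keeps these factors in the cytoplasm when nutrients are plentiful. In B cells, lysosomal proteases also cut antigen for presentation on MHC class II.

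Depth, read from the smallest step of each library's values, was 5.52 to 21.6 M reads (median 16.0). Mitochondrial genes took 1.91% to 80.5% of the reads, with 1.91% to 3.92% in CON, 5.58% to 20.9% in IBR and 4.11% to 67.6% in BTZ. Levels are therefore given as CPM (reads per 1e+06) rescaled to the non-mitochondrial genes, called nCPM, and differences as differences in log2(nCPM + 1), a scale that understates the change of low genes. The 3 JEKO-1 BTZ libraries did not resemble each other: replicates 1 and 2 had 67.6% and 67.5% mitochondrial reads, replicate 3 had 9.92%, and ATP6AP1, FLCN, SMPD1, ULK1 and MCOLN1 were at 0 nCPM in replicate 3 alone of the 3. Differences that rest on replicate 3 are given with and without it. The 8 libraries of MINO-P and MINO-VR under CON, CLF, BTZ and BTZ_CLF carry other library names (HK) than the remaining 48 (MCL). In the MINO lines, IBR, YM155 or S63845 against CON, and IBR against BTZ, therefore cannot be told apart from the naming series. Values from JEKO-1 and Z138 alone are given too. The 8 B-cell and mantle cell lymphoma markers summed to 914 to 6518 nCPM, with CD22 at 0 in 3 libraries and the others above 0 in each, whereas 7 monocyte and macrophage markers summed to at most 28.8 nCPM. Fewer cells of a kind and less RNA per cell cannot be told apart in such bulk samples.

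Levels in untreated cells come first. SQSTM1 (chr5:179806398-179838079, hg38), the cargo receptor, stood at 209.5 nCPM in MINO-P CON, 281.8 in MINO-VR, 197 in JEKO-1 and 177.1 and 183.9 in the Z138 replicates. GABARAPL1 (chr12:10212458-10223129), a vesicle coat protein of the GABARAP family, was at 4.46 nCPM in MINO-P CON, 9.57 in MINO-VR, 5.33 in JEKO-1 and 1.36 and 0.310 in Z138. The MiT/TFE factors TFEB (chr6:41683978-41736260) and TFE3 (chrX:49028726-49043411) were both present, with TFEB at 75.8, 105 and 109.9 nCPM in CON of the MINO-P, MINO-VR and JEKO-1 lines, and 46.8 and 21.5 in Z138. TFE3 stood at 70.6, 91.3 and 41.5 nCPM in the same lines and at 30.6 and 22.3 in Z138. MITF (chr3:69739456-69968337), the melanocyte member of the family, was at 0 in 49 of 56 libraries and at 1 nCPM or more in 1, the third JEKO-1 BTZ replicate with 4.35 nCPM. MITF therefore missed the expression filter of at least 1 CPM in 2 libraries, and the other 44 genes were tested. GPNMB (chr7:23235967-23275109), a lysosomal glycoprotein known as a MiT/TFE target, was at 5.30 nCPM in MINO-P CON, 8.29 in MINO-VR, 3.63 in JEKO-1 and 0.260 and 0.743 in Z138.

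The promoters of 32 of the 45 genes were matched by symbol in a RefSeq promoter table (GRCh38.p14), with 43 windows reaching from 250 bases before a transcription start to 50 from it on. The E-box TCACGTG, or its reverse complement CACGTGA, occurred in 8 of these 32 genes (25%), and in 1226 of all 27305 genes of the table (4.49%). Counted by window, it was in 8 of 43 and in 1303 of all 35116 (3.71%). The palindrome TCACGTGA, which contains both forms, occurred in 5 of the 32 genes and in 1.18% of all genes, and the core CACGTG, contained in all of them, in 8 of the 32 and in 8.77%. The 8 genes span several roles: LAMP1 is the main lysosomal membrane protein, MCOLN1 the lysosomal calcium channel, CTSA and CTSD are proteases, GAA digests glycogen, ATP6V0D1 is a proton pump subunit, and FNIP1 and RRAGC belong to the nutrient-sensing branch. Their E-box stretches are printed so that the letters can be read beside the expression changes; capitals mark TCACGTG or CACGTGA on the strand of the gene, and a match is a description of letters, not a shown binding site.
LAMP1, chr13:113297026-113297237, plus strand, 213 to 2 bases before the start: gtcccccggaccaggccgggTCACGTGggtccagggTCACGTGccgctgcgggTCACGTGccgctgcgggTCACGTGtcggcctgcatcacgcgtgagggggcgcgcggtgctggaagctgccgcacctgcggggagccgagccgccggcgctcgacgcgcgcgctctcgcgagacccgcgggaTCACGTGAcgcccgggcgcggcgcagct
MCOLN1, chr19:7522562-7522623, plus strand, 62 to 1 bases before the start: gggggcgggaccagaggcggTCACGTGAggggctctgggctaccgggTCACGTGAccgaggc
CTSA, chr20:45891282-45891308, plus strand, 53 to 27 bases before the start: aggaagactgTCACGTGgcgccggagt
CTSD, chr11:1763958-1763984, minus strand, 57 to 31 bases before the start: cggccgcgccCACGTGAccggtccggg
GAA, chr17:80101494-80101521, plus strand, 87 to 60 bases before the start: ggaggccgcgTCACGTGAcccaccgcgg
ATP6V0D1, chr16:67481200-67481227, minus strand, 70 to 43 bases before the start: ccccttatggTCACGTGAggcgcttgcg
FNIP1, chr5:131797085-131797212, minus strand, 195 to 68 bases before the start: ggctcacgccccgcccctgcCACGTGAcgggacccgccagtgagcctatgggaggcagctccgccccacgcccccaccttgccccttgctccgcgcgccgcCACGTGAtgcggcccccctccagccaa
RRAGC, chr1:38859858-38859904, minus strand, 132 to 86 bases before the start: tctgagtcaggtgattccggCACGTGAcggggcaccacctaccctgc
The LAMP1 stretch holds 5 matches, MCOLN1 and FNIP1 hold 2 each, and the other 5 stretches show 1 each. For CTSA and GAA a second match before the start lies outside the printed stretch, and the palindrome of CTSA is that second match. The CTSA and CTSD stretches lie inside the gene spans of the deposited annotation (chr20:45890144-45898950 and chr11:1752752-1764574). The starts used for them are therefore not the outermost starts of these genes.

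IBR treatment was accompanied by higher expression across the list. Of the 44 genes tested, 27 rose and 0 fell against CON (limma, Benjamini-Hochberg adjusted p under 0.05 over 17203 genes), where 4.37% of all genes tested rose and 6.39% fell. The median difference of the 44 was 1.07 on the log2 scale, against -0.0018 over all genes tested, and 39 of the 44 differences were positive. Within each of the 4 lines, every IBR library lay above every CON library for 29 of the 44 genes, as it did for 4.2% of all genes. The median of the list in a single IBR library, set against CON of its own line, lay between 0.84 and 1.29 in the 11 libraries. In these libraries 19 to 28 of the 44 genes were at least 1 log2 unit higher, as were 7.12% to 15.1% of all genes. By line, the medians were 0.85 in MINO-P, 1.25 in MINO-VR, 1.12 in JEKO-1 and 1.07 in Z138.

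**Figure D1:**
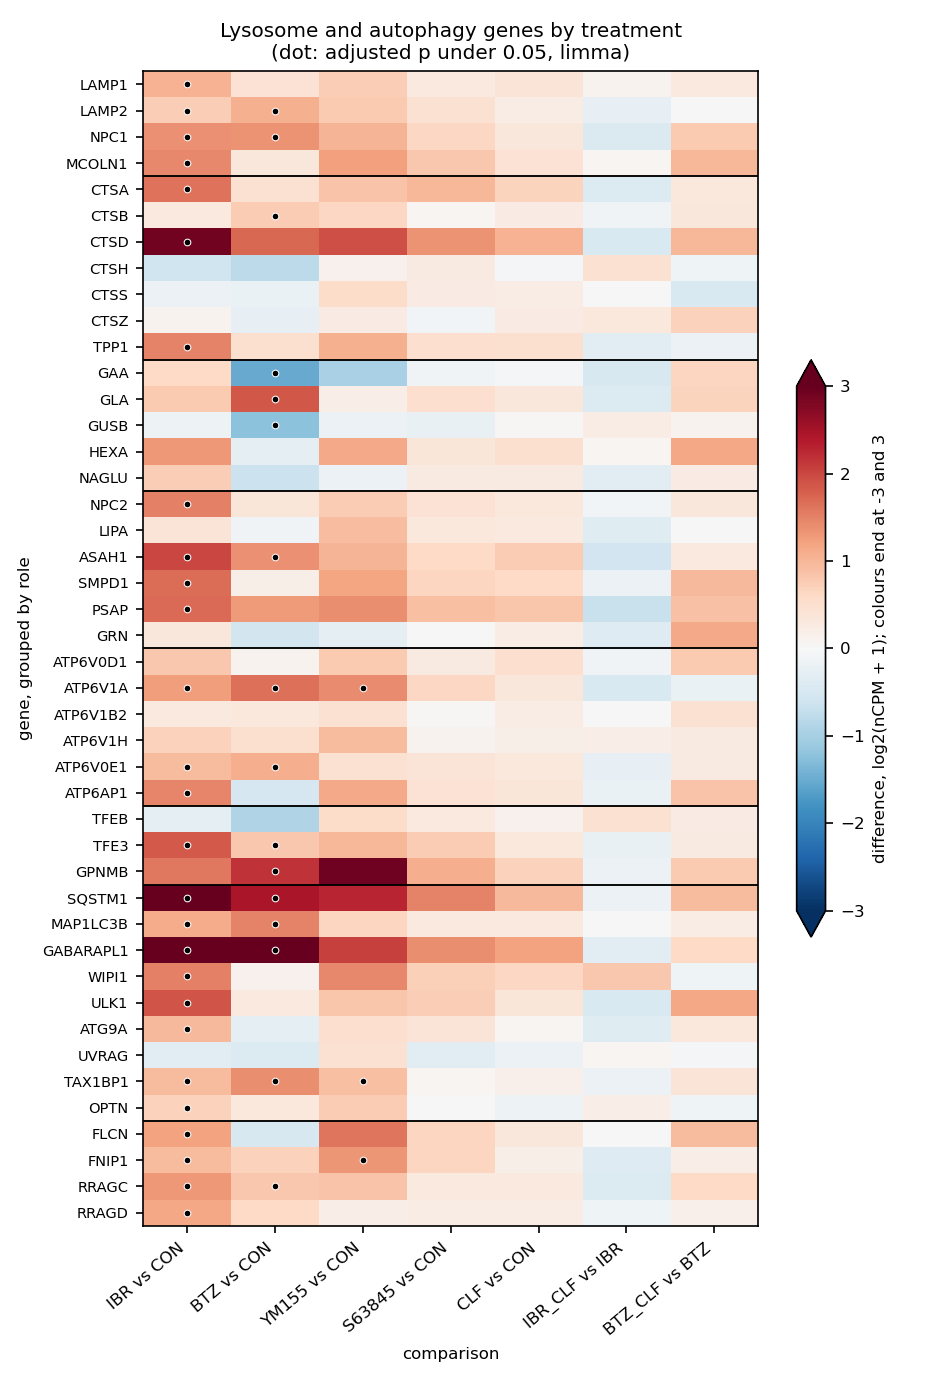
Differences between treatments for the 44 genes tested, grouped by role (rows), in 7 comparisons (columns); colour is the difference in log2(nCPM + 1), cut at -3 and 3, and a dot marks a limma adjusted p under 0.05. IBR against CON has 27 dots and BTZ against CON has 16, while the CLF and S63845 columns have none.

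The autophagy genes held the 2 largest differences under IBR, and 8 of 9 rose. GABARAPL1 ranged from 45.1 to 122 nCPM in the 11 IBR libraries (median 82.0), above its CON range with no overlap. The difference was 4.16 log2 units (SE 0.61, limma adjusted p = 1.89e-05). SQSTM1 ranged from 989.5 to 3653 nCPM under IBR (median 1972), and its 5 CON libraries all lay lower, for a difference of 2.98 (SE 0.56, limma adjusted p = 0.000404). ULK1 (chr12:131894622-131923151), the kinase that starts autophagy, was at 43.6, 51.1 and 16.4 nCPM in CON of the MINO-P, MINO-VR and JEKO-1 lines and at 134 and 97.1 in Z138. It ranged from 68.5 to 460.8 under IBR (median 121) and rose by 1.89 (SE 0.52, limma adjusted p = 0.0142). The ULK1 ranges overlap across lines, because untreated Z138 lay above treated JEKO-1, but not within a line. MAP1LC3B (chr16:87383953-87404780), the LC3 coat protein, was at 149, 248 and 149 nCPM in CON of the first 3 lines and at 158 and 67.6 in Z138, and it ranged from 190 to 421 under IBR (median 316). Its difference was 1.11 (SE 0.27, limma adjusted p = 0.0050). Among the others, WIPI1, which binds the forming vesicle membrane, rose by 1.51, ATG9A, its lipid-shuttling transmembrane protein, by 0.97, and the cargo receptors TAX1BP1 and OPTN by 0.95 and 0.69. The OPTN call was lost in 16 of 31 alternative fits (limma adjusted p up to 0.209). UVRAG, which helps vesicles mature, differed by -0.34 and did not pass.

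All 4 membrane and channel proteins rose under IBR: MCOLN1 by 1.45 (SE 0.42, limma adjusted p = 0.0191), the cholesterol exporter NPC1 by 1.37, LAMP1 by 1.04 and LAMP2 by 0.73. MCOLN1 (chr19:7522624-7534010) lay between 5.63 and 12.6 nCPM in the CON libraries and between 14.9 and 49.1 under IBR (median 35.9). Of 6 genes for lipid and sphingolipid breakdown, 4 rose. ASAH1, the acid ceramidase, was at 59.4, 75.6 and 73.0 nCPM in CON of the MINO-P, MINO-VR and JEKO-1 lines and at 33.5 and 23.6 in Z138, and it ranged from 89.1 to 768 under IBR (median 381). Its difference of 2.01 (SE 0.25) had the lowest adjusted p of the list in this comparison (limma, 1.58e-06). The sphingolipid activator PSAP, the sphingomyelinase SMPD1 and the cholesterol carrier NPC2 rose by 1.70, 1.67 and 1.51, while LIPA and GRN differed by 0.38 and 0.33 and did not pass.

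Of 7 proteases, CTSD, CTSA and TPP1 rose. CTSD (chr11:1752752-1764574), an aspartyl protease, was at 105.5 nCPM in MINO-P CON, 301.3 in MINO-VR, 102.3 in JEKO-1 and 88.7 and 55.0 in Z138, and it ranged from 417 to 1747 under IBR (median 935). The groups did not overlap, and the difference was 2.89 (SE 0.67, limma adjusted p = 0.0035). The cysteine cathepsins CTSB, CTSZ, CTSS and CTSH differed by 0.29, 0.10, -0.17 and -0.61, and none passed. None of the 5 glycosidases passed either: HEXA differed by 1.29 (limma adjusted p = 0.113), GLA by 0.78, NAGLU by 0.74, GAA by 0.59 and GUSB by -0.16. Of 6 V-ATPase genes, ATP6AP1 rose by 1.46 (SE 0.50, limma adjusted p = 0.0484), ATP6V1A by 1.24 and ATP6V0E1 by 0.95. The ATP6AP1 call was lost in 25 of 31 alternative fits (limma adjusted p up to 0.549). ATP6V0D1, ATP6V1H and ATP6V1B2 differed by 0.80, 0.70 and 0.29 and did not pass.

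The MiT/TFE factors differed from each other. TFE3 ranged from 104 to 292 nCPM under IBR (median 164) and lay above the CON libraries throughout, with a difference of 1.85 (SE 0.28, limma adjusted p = 2.57e-05). TFEB ranged from 32.4 to 94.2 nCPM under IBR (median 50.4), and differed by -0.27 (SE 0.35, limma adjusted p = 0.704). Within lines, each IBR library lay below CON for TFEB in MINO-P (54, 43.9 and 46.3 nCPM against 75.8), in MINO-VR (44.7, 50.4 and 55.8 against 105.2) and in JEKO-1 (70.3, 78.1 and 94.2 against 109.9). In Z138, 32.4 and 40.1 nCPM lay between the CON values of 21.5 and 46.8. GPNMB ranged from 4.59 to 41.2 nCPM (median 22.9), overlapped with CON over all lines but not within a line, and its difference of 1.58 (SE 0.70) did not pass (limma adjusted p = 0.148). The nutrient-sensing genes all rose, RRAGC (chr1:38838198-38859773) by 1.31 (SE 0.24, limma adjusted p = 0.000358), FLCN by 1.21, RRAGD by 1.17 and FNIP1 by 0.96. The FLCN call was lost in 18 of 31 alternative fits (limma adjusted p up to 0.483). RRAGC lay between 27.8 and 54.1 nCPM in CON and between 70.8 and 202 under IBR. RRAGD (chr6:89364616-89412274), the other Rag GTPase of this list, was not alike in the lines: 26.9 nCPM in MINO-P CON stood against 225, 208 and 129 under IBR, and 34.8 in MINO-VR against 302, 285 and 255. In JEKO-1, 21.6 nCPM in CON stood against 79.7, 78.5 and 58.6, and in Z138 67.0 and 78.8 stood against 81.5 and 74.3, so the Z138 groups overlapped. The RRAGD difference over all lines had an SE of 0.28 (limma adjusted p = 0.00459).

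**Figure D2:**
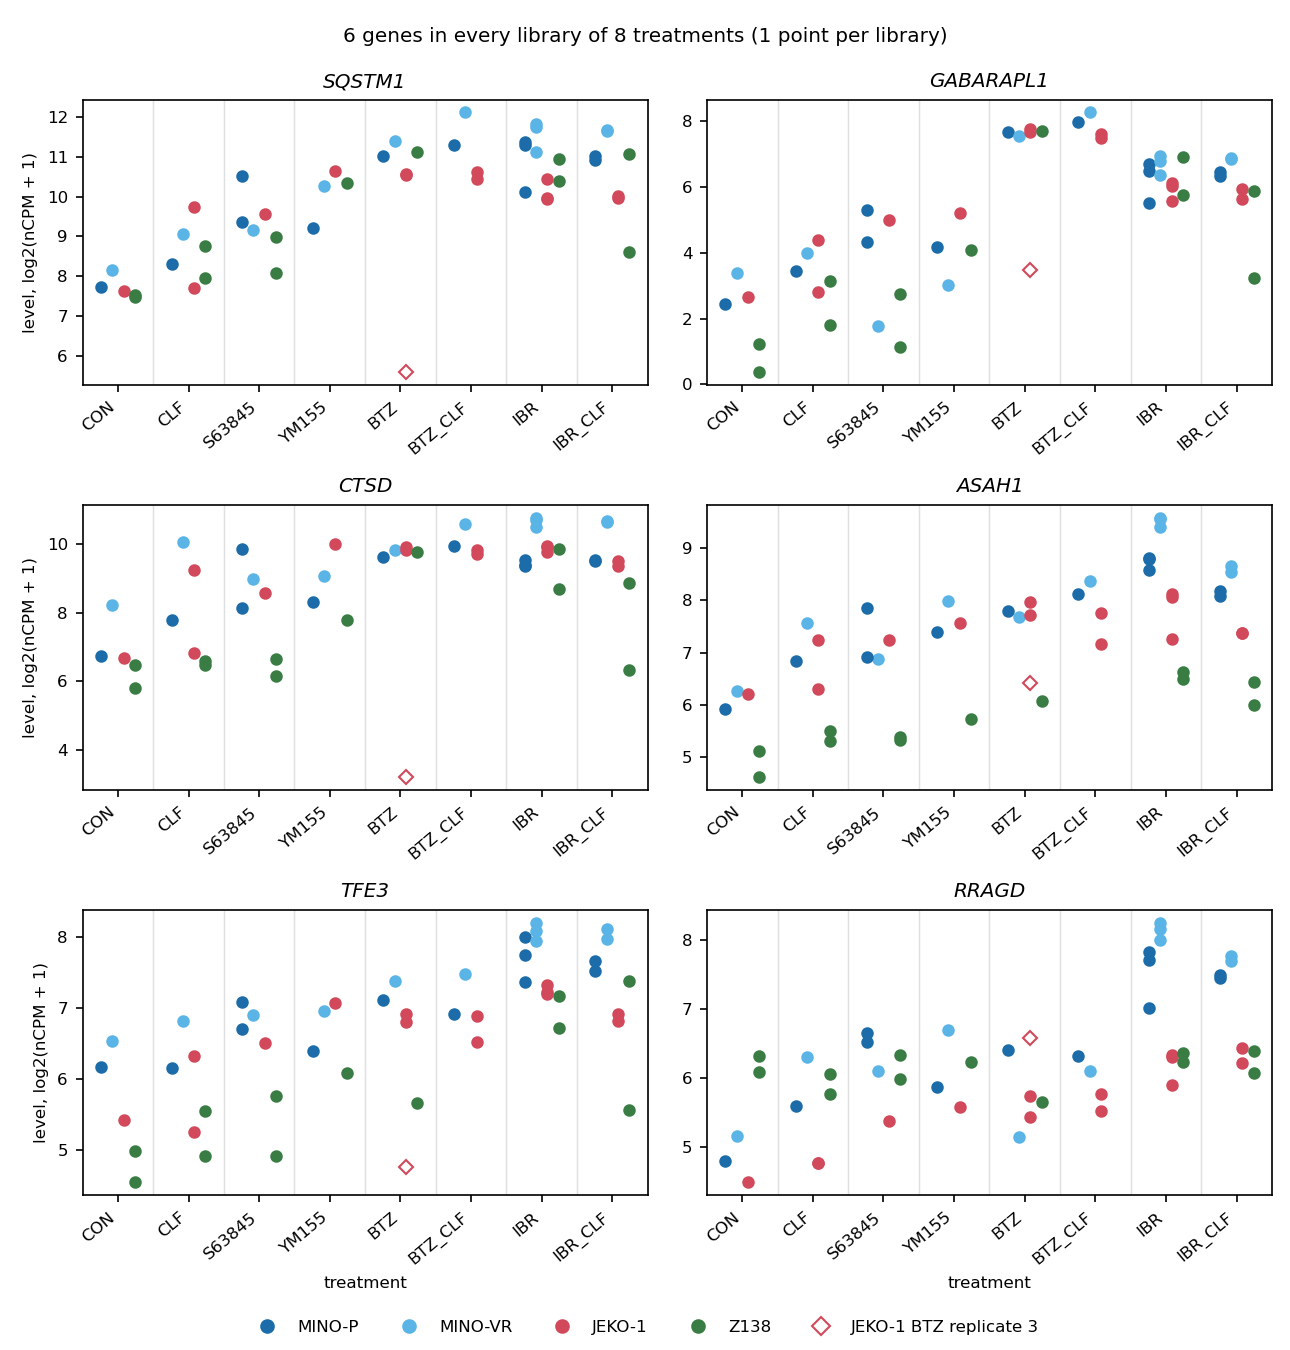
Level of SQSTM1, GABARAPL1, CTSD, ASAH1, TFE3 and RRAGD in log2(nCPM + 1) (vertical axis) in every library of 8 treatments (horizontal axis); each point is a library, coloured by line, and the open diamond is JEKO-1 BTZ replicate 3. SQSTM1 lies between 177.1 and 281.8 nCPM in CON and between 989.5 and 3653 under IBR, and the diamond lies at 47.4.

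Of the 8 genes with the E-box printed above, 6 rose under IBR (median difference 1.17), LAMP1, MCOLN1, CTSA, CTSD, FNIP1 and RRAGC. Of the 23 tested genes with a promoter window but no such match, 15 rose (median 1.21), and of the 13 without a window, 6 rose (median 0.74). Under BTZ, with all libraries, 1 of the 8 rose, 8 of the 23 and 5 of the 13. The BTZ medians were 0.46, 0.29 and 0.60 in that order, also with all libraries. Without JEKO-1 BTZ replicate 3 more genes of the list rose under BTZ, MCOLN1 and CTSD of the 8 among them. The split was not repeated in that fit. The mitochondrial share was higher in each IBR library than in each CON library, and 3 of 7 B-cell and lymphoma markers reported here fell, PAX5 with a difference of -2.77, CD22 with -2.75 and CCND1 with -1.49. SOX11, CD79A, CD79B and MS4A1 differed by 0.46, -0.14, -0.54 and -0.51 and did not pass. The part of these in the lysosomal differences was not tested. Monocyte and macrophage markers summed to 0.328 to 8.15 nCPM under IBR and to 0.130 to 1.16 in CON. Of the 56 libraries, ITGAM was at 0 in 11, CD14 in 15, LYZ in 28, CSF1R in 31, MRC1 in 35, MARCO in 54 and CD163 in 55. Without JEKO-1 BTZ replicate 3, which is in the fit but in neither group, 30 genes rose under IBR (6.58% of all genes). In JEKO-1 and Z138 alone, where treatment and naming series are not tied, 4 rose (GABARAPL1, TFE3, ASAH1 and MAP1LC3B, where 0.455% of all genes rose), and 20 rose with that replicate also left out (2.18%). The list median was 1.04 and 1.00 in these last fits.

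BTZ treatment raised some genes of the list, lowered others, and the count depended on JEKO-1 BTZ replicate 3. With all libraries, 14 of the 44 genes rose and 2 fell against CON (limma), where 4.87% of all genes rose and 13.8% fell. Without replicate 3, 24 rose and 2 fell, against 7.87% and 15.5% of all genes. The list median was 0.41 with that library and 0.72 without it, and the median over all genes was -0.17 and -0.13. Replicate 3 alone had a list median of -1.39 against JEKO-1 CON, with 23 of the 44 genes at least 1 log2 unit lower, as were 32.1% of all genes. Replicates 1 and 2 had list medians of 0.92 and 0.98. With CPM as deposited, which includes mitochondrial reads, 8 of the 44 rose and 6 fell, and the median over all genes was -0.42. IBR and BTZ are set against the same 5 CON libraries, so their differences from CON are given side by side only, and a direct comparison follows below.

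Within each of the 4 lines, every BTZ library lay above every CON library for 8 of the 44 genes and below for 2, as for 3.48% and 12.1% of all genes. Without replicate 3 these counts were 24 and 4, against 8.21% and 18.3% of all genes, and in JEKO-1 and Z138 with that replicate they were 9 and 3, against 4.81% and 18.3%.

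GABARAPL1 had the largest rise of the list under BTZ. It was at 203.9 nCPM in MINO-P BTZ, 186.5 in MINO-VR, 203.2, 216.3 and 10.04 in the JEKO-1 replicates and 207.3 in Z138. The difference was 4.77 (SE 0.62, limma adjusted p = 9.03e-07), and 5.42 without replicate 3. SQSTM1 was at 2076 nCPM in MINO-P BTZ, 2687 in MINO-VR, 1526, 1505 and 47.4 in JEKO-1 and 2236 in Z138. The third JEKO-1 value lay below each CON library, and the difference was 2.44 (SE 0.57, limma adjusted p = 0.00166), or 3.22 without it. MAP1LC3B was at 636 nCPM in MINO-P BTZ, 332 in MINO-VR, 692, 606 and 339 in JEKO-1 and 300.2 in Z138, and rose by 1.48 (SE 0.27, limma adjusted p = 0.000109), or 1.59 without replicate 3. TAX1BP1 rose by 1.40 (SE 0.21, limma adjusted p = 4.95e-06), or 1.64 without it. These 4 were the autophagy genes that rose, of 9, and ULK1 rose as well without replicate 3, by 1.13.

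GPNMB rose under BTZ, unevenly between lines. It was at 7.26 nCPM in MINO-P BTZ, 18.4 in MINO-VR, 169.7, 176 and 3.91 in JEKO-1 and 14.7 in Z138. The MINO-P value stood against 5.30 in CON and the first JEKO-1 value against 3.63. The difference was 2.17 (SE 0.72, limma adjusted p = 0.0264), and 2.81 without replicate 3. TFE3 was at 137, 165, 111, 119, 25.9 and 49.6 nCPM in the same order, and rose by 0.81 (SE 0.28, limma adjusted p = 0.0394), or 1.10 without replicate 3. This TFE3 call was lost in 16 of 25 alternative fits, where the difference went down to 0.43 and the limma adjusted p up to 0.441. TFEB was at 34.6 and 39.2 nCPM in MINO-P and MINO-VR, 117, 105 and 14.7 in JEKO-1 and 31.3 in Z138, and differed by -0.89 (SE 0.35, limma adjusted p = 0.0692), or -0.50 without replicate 3. The MINO values of TFEB lay below their CON libraries, and the first 2 JEKO-1 values lay near theirs.

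The glycosidases moved apart under BTZ. GLA (chrX:101393273-101408013), the alpha-galactosidase, was at 34.3, 44.1 and 51.6 nCPM in CON of the first 3 lines and at 19.1 and 23.9 in Z138. It was at 184 nCPM in MINO-P BTZ, 351 in MINO-VR, 166, 199 and 16.2 in JEKO-1 and 132 in Z138, and rose by 1.87 (SE 0.40, limma adjusted p = 0.000742), or 2.40 without replicate 3. GAA (chr17:80101533-80119882), the glycogen-digesting glucosidase, fell by 1.50 (SE 0.31, limma adjusted p = 0.000473), or by 1.47 without that replicate. It went from 31.6 to 11.7 nCPM in MINO-P, from 29.9 to 25.0 in MINO-VR, from 7.74 to 0.857, 1.67 and 2.14 in JEKO-1 and from 112 and 66.4 to 36.6 in Z138, lower in each library including the third JEKO-1 replicate. GUSB, the beta-glucuronidase, fell by 1.22 (SE 0.25, limma adjusted p = 0.000426), or fell by 1.02 without replicate 3, although 59.0 nCPM in MINO-VR BTZ was close to 59.5 in its CON.

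ATP6V1A, the catalytic V-ATPase subunit, was at 60.6, 26.6 and 80.7 nCPM in CON of the MINO-P, MINO-VR and JEKO-1 lines and at 55.7 and 39.9 in Z138. Under BTZ it was at 197 in MINO-P, 95.2 in MINO-VR, 255, 251 and 262 in JEKO-1 and 171 in Z138. Here the third JEKO-1 replicate matched the other two, and the difference was 1.65 (SE 0.30, limma adjusted p = 0.000101), or 1.66 without it. ASAH1, NPC1, ATP6V0E1, LAMP2, RRAGC and CTSB rose as well, by 1.36, 1.34, 1.08, 1.07, 0.81 and 0.77, and without replicate 3 by 1.54, 1.79, 1.34, 1.075, 1.01 and 1.02. The CTSB call was lost in 13 of 25 alternative fits, where the difference went down to 0.39 and the limma adjusted p up to 0.354. RRAGD differed by 0.60 and MCOLN1 by 0.34, and neither passed (limma adjusted p = 0.136 and 0.638). Without replicate 3, RRAGD was at 0.43 and MCOLN1 rose by 0.98 (limma adjusted p = 0.00514). CTSD was at 796 nCPM in MINO-P BTZ, 907 in MINO-VR, 965, 917 and 8.34 in JEKO-1 and 880.4 in Z138, and its difference of 1.73 missed the threshold (limma adjusted p = 0.0688) but passed without replicate 3, at 2.74. With all libraries, 4 of 7 B-cell and lymphoma markers reported here fell under BTZ, PAX5 with a difference of -2.39, CD79B with -1.90, CD79A with -1.77 and CCND1 with -1.56, and with -2.74, -1.40, -1.62 and -1.63 without replicate 3. CD22, SOX11 and MS4A1 differed by -1.64, -0.14 and -0.13 and did not pass. Monocyte and macrophage markers summed to 0 to 12.0 nCPM under BTZ and to 0.130 to 1.16 in CON. The part of all these markers in the lysosomal differences was not tested. In JEKO-1 and Z138 alone 7 genes rose and 2 fell (1.56% and 5.79% of all genes), and 17 rose and 2 fell with replicate 3 also out (5.23% and 10.1%).

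**Figure D3:**
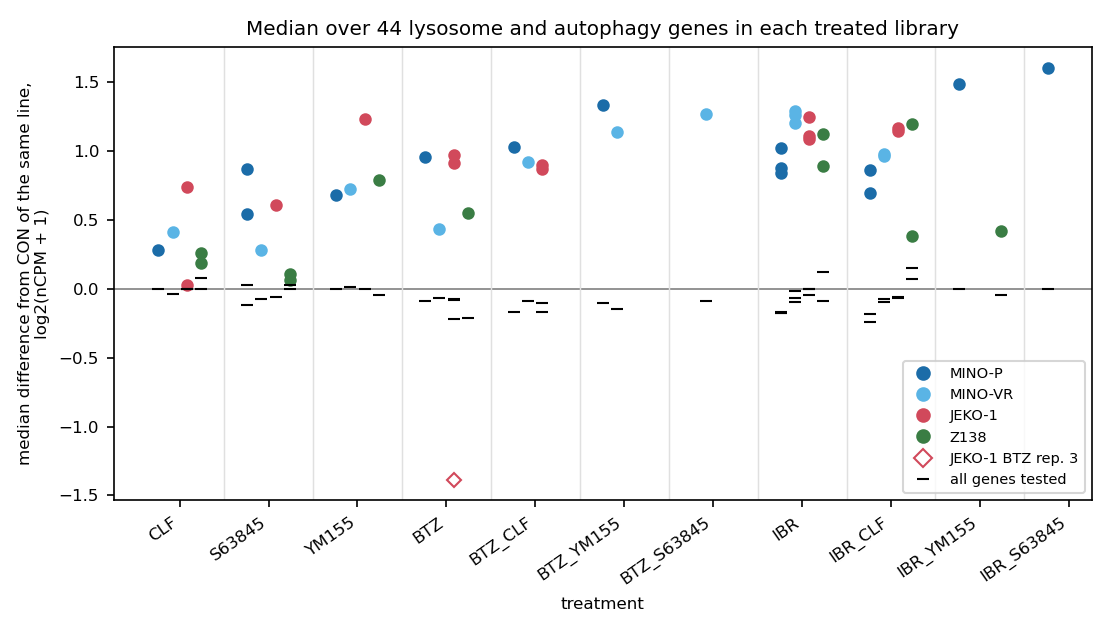
Median over the 44 genes of the difference in log2(nCPM + 1) from CON of the same line (vertical axis), 1 point for each treated library, by treatment (horizontal axis) and coloured by line; black ticks are the median over all genes tested. IBR libraries lie between 0.84 and 1.29 and CLF libraries between 0.03 and 0.74, and JEKO-1 BTZ replicate 3 lies at -1.39.

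In a comparison added after the others were seen, IBR and BTZ differed for 17 of the 44 genes (limma), with 16 higher under IBR and 1 higher under BTZ, where 13.5% and 4.89% of all genes were. In the MINO lines the BTZ libraries are HK-named and the IBR libraries MCL-named, so treatment and naming series cannot be told apart there. In JEKO-1 and Z138 alone, 6 of these 17 calls were kept. GAA differed the most, by 2.09 (SE 0.29, limma adjusted p = 5.04e-06). It ranged from 15.03 to 110.8 nCPM under IBR and from 0.857 to 36.6 under BTZ, and the groups did not overlap within a line. ATP6AP1, FLCN, ULK1, HEXA and SMPD1 followed with 1.97, 1.69, 1.60, 1.58 and 1.49, but each stood at 0 to 0.221 nCPM in JEKO-1 BTZ replicate 3. TFE3 was higher under IBR by 1.04 and MCOLN1 by 1.11 (limma adjusted p = 0.00461 and 0.044). GLA was the gene higher under BTZ, by 1.08 (written as IBR minus BTZ, -1.08, limma adjusted p = 0.0365). Without replicate 3 the split was 11 and 4, against 11.2% and 6.27% of all genes. GAA was at 2.05, FLCN at 1.02, ATP6AP1 at 0.93 and TFE3 at 0.69. ULK1, SMPD1, HEXA and MCOLN1 no longer passed, with 0.59, 0.54, 0.47 and 0.34. In that fit GLA, GABARAPL1, CTSB and TAX1BP1 were higher under BTZ, with differences of -1.73, -1.40, -0.79 and -0.73. With CPM as deposited, which includes mitochondrial reads, 24 were higher under IBR and 0 under BTZ. Mitochondrial genes took 67.6% and 67.5% of the reads in JEKO-1 BTZ replicates 1 and 2 and at most 20.9% in IBR. That scale lowers every non-mitochondrial gene in those BTZ libraries. No share over all genes is set beside this count, so it is not read as a result about the list.

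YM155 was measured in 1 library per line. ATP6V1A, FNIP1 and TAX1BP1 rose against CON, 3 of the 44 genes (limma), where 0.738% of all genes rose and 0.407% fell, and 0 of the 44 fell. ATP6V1A was at 93.3 nCPM in MINO-P, 55.0 in MINO-VR, 298 in JEKO-1 and 99.4 in Z138, and rose by 1.43 (SE 0.35, limma adjusted p = 0.0326). FNIP1, which regulates FLCN, was at 51.2, 31.8 and 20.9 nCPM in CON of the first 3 lines and at 49.3 and 56.7 in Z138. It was at 119.6, 111, 72.7 and 126 under YM155 and rose by 1.31 (SE 0.30, limma adjusted p = 0.0189). TAX1BP1 was at 169, 194 and 66.8 nCPM in CON of the first 3 lines and at 99.0 and 82.9 in Z138, and at 200.3, 237, 122 and 241 under YM155. Its difference was 0.89 (SE 0.24, limma adjusted p = 0.0479). The list median was 0.85 against 0.05 over all genes, and 40 of 44 differences were positive. Of the 44, 28 had an unadjusted p under 0.05, as had 2509 of all 17203 genes. The mitochondrial share was 4.32% to 9.03% in the YM155 libraries and at most 3.92% in CON. Monocyte and macrophage markers summed to 0.742 to 28.8 nCPM, against at most 1.16 in CON, and of these ITGAM differed by 1.52 (limma adjusted p = 0.0707). Without JEKO-1 BTZ replicate 3 ITGAM passed, with 1.52 (limma adjusted p = 0.0424). In that fit the B-cell marker CD79B passed as well, with a difference of -1.27 (limma adjusted p = 0.0480). No other tested marker reported here passed in either fit. The part of these markers in the YM155 differences was not tested.

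The 2 largest YM155 differences were those of GPNMB and SQSTM1, which missed the threshold. GPNMB was at 49.9 nCPM in MINO-P, 72.7 in MINO-VR, 69.4 in JEKO-1 and 13.8 in Z138, above CON in each line, with a difference of 2.92 (SE 0.83, limma adjusted p = 0.0689). SQSTM1 was at 589, 1232, 1606 and 1293 nCPM, also above CON in each, with a difference of 2.29 (SE 0.66, limma adjusted p = 0.0729). GABARAPL1 was at 16.9, 7.11, 35.9 and 15.8 nCPM, below CON in MINO-VR and above it in the other 3 lines. Within each of the 4 lines, the YM155 library lay above every CON library for 29 of the 44 genes, as for 10.4% of all genes. TFE3 differed by 1.00, MCOLN1 by 1.23, RRAGC by 0.86, MAP1LC3B by 0.64, TFEB by 0.54 and RRAGD by 0.20, and none of these passed. Without JEKO-1 BTZ replicate 3, a library that is in neither group but in the fit, 17 of the 44 rose (2.29% of all genes), GPNMB by 2.80 (limma adjusted p = 0.0239) and SQSTM1 by 2.14 (limma adjusted p = 0.00576) among them. In JEKO-1 and Z138 alone 0 passed (0% of all genes), and 8 passed with replicate 3 also out (0.652% of all genes).

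S63845 and CLF gave no call. For S63845 against CON 0 of the 44 genes passed (limma), as did 0% of all genes, and the list median was 0.39 against 0.05 over all genes. The unadjusted p was under 0.05 for 6 of the 44 and for 428 of all 17203 genes. The 6 were SQSTM1, GABARAPL1, CTSA, TFE3, FNIP1 and ASAH1. SQSTM1 was at 1476 and 660.2 nCPM in MINO-P, 574.8 in MINO-VR, 759.1 in JEKO-1 and 271.6 and 509.9 in Z138, above CON in each line, with a difference of 1.49 and a 95% interval from 0.26 to 2.71. TFE3 differed by 0.77, with an interval from 0.16 to 1.38. Within each of the 4 lines, every S63845 library lay above every CON library for 5 of the 44 genes and below for 0. Over all 17203 genes these counts were 208 and 281. Of the 44 differences 39 were positive, as were 57.4% over all genes. For CLF against CON 0 passed (limma), as did 0% of all genes, and the list median was 0.31 against -0.0073. Of the 44, 1 had an unadjusted p under 0.05, ASAH1 with 0.77, as had 62 of all 17203 genes. Here the 2 JEKO-1 libraries stood apart: SQSTM1 was at 208.6 nCPM in replicate 1 and 848.8 in replicate 2, and GPNMB at 2.52 and 70.9. The list median against JEKO-1 CON was 0.03 in replicate 1 and 0.74 in replicate 2. At least 1 log2 unit higher were 0 and 15 of the 44 genes, and 0.0756% and 4.05% of all genes. In the other lines, SQSTM1 under CLF was at 315.6 nCPM in MINO-P, 536 in MINO-VR and 249 and 435 in Z138, each above its CON. Every CLF library lay above every CON library of its line for 11 of the 44 genes and below for 1. Over all 17203 genes these counts were 283 and 176. Of the 44 CLF differences 40 were positive, as were 48.3% over all genes.

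CLF on top of IBR or BTZ also gave no call. For IBR_CLF against IBR 0 of 44 passed (limma, 0% of all genes), and the lowest adjusted p was 0.289, for ASAH1 with -0.58. The unadjusted p was under 0.05 for 3 of the 44 and for 1679 of all 17203 genes. SQSTM1 under IBR_CLF was at 1937 and 2073 nCPM in MINO-P, 3213 and 3304 in MINO-VR, 1009 and 1042 in JEKO-1 and 391.8 and 2160 in Z138. The Z138 replicates differed as widely for CTSD, with 79.2 and 470.5 nCPM, and for GABARAPL1, with 8.50 and 57.5. The SQSTM1 difference from IBR was -0.18, with a 95% interval from -1.05 to 0.68. For BTZ_CLF against BTZ, measured in 3 lines, 0 of 44 passed (limma), where 0.0698% of all genes passed, 0.0639% higher and 0.00581% lower. Of the 44, 9 had an unadjusted p under 0.05, as had 1284 of all 17203 genes. Without JEKO-1 BTZ replicate 3 none of the 44 had one, and 0.0175% of all genes passed.

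Cell lines were compared among MCL-named libraries under IBR, IBR_CLF, YM155 and S63845, with 8 libraries of MINO-P and 7 of each other line. MINO-VR had 5 of the 44 genes higher than MINO-P and 0 lower (limma over 16245 genes), where 2.76% and 1.32% of all genes were (4.08% in either direction). NAGLU, which digests heparan sulfate, ranged from 17.4 to 47.8 nCPM in MINO-P (median 39.3) and from 52.2 to 95.4 in MINO-VR (median 84.4), with no overlap. Its difference was 1.07 (SE 0.19, limma adjusted p = 0.000775). CTSB ranged from 101 to 191 nCPM in MINO-P (median 127) and from 143 to 315 in MINO-VR (median 244), and differed by 0.84 (SE 0.17, limma adjusted p = 0.00239). The peptidase TPP1, LAMP2 and ATP6AP1 were higher by 0.87, 0.69 and 0.67, with overlapping ranges (limma adjusted p = 0.0103, 0.0256 and 0.0234). In the 1 CON library of each MINO line, ATP6AP1 was at 94.1 nCPM in MINO-P and 211.9 in MINO-VR, and LAMP2 at 162.3 and 321.6.

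**Figure D4:**
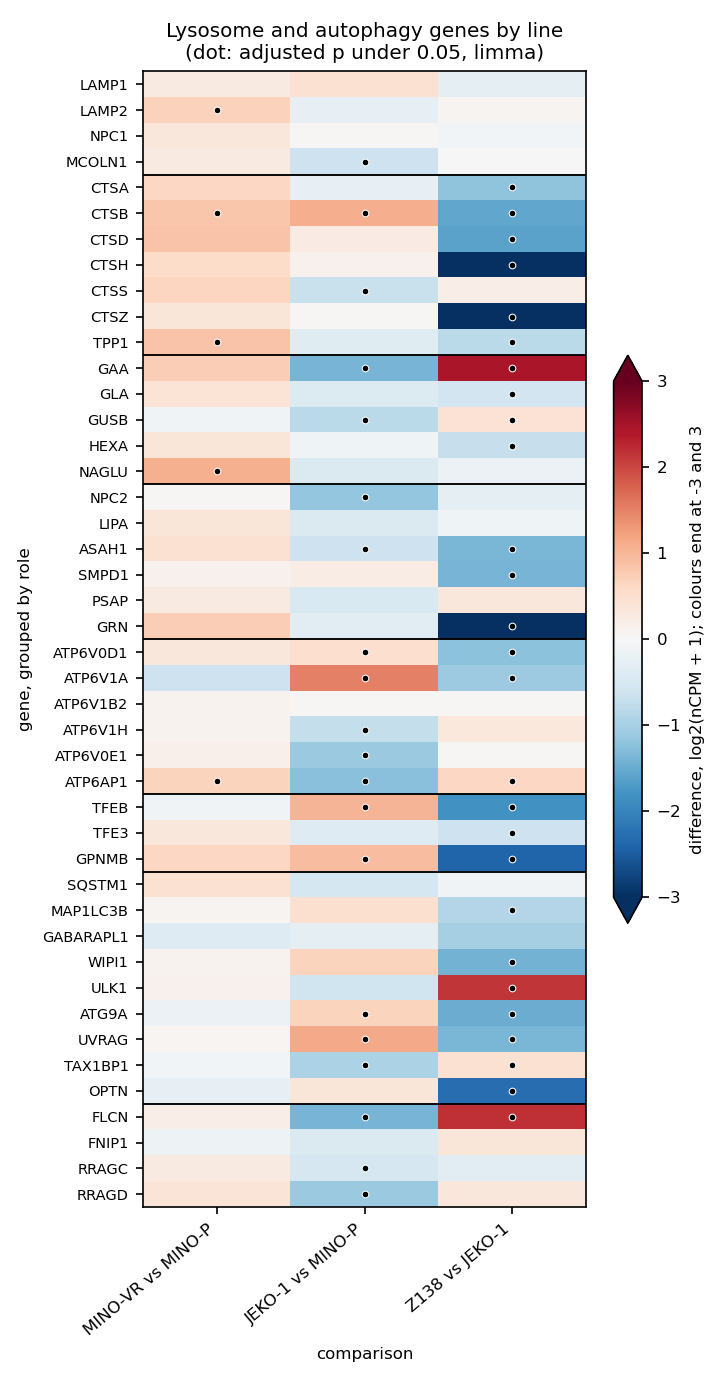
Differences between cell lines for the 44 genes tested, grouped by role (rows), for MINO-VR against MINO-P, JEKO-1 against MINO-P and Z138 against JEKO-1 (columns); colour is the difference in log2(nCPM + 1), cut at -3 and 3, and a dot marks a limma adjusted p under 0.05. Z138 against JEKO-1 has 27 dots, with CTSH, CTSZ and GRN below -3.

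Between Z138 and JEKO-1, 27 of the 44 genes differed. Z138 had 6 genes higher and 21 lower than JEKO-1 (limma), where 25% and 26.2% of all genes were, and with CPM as deposited, which moves the median of all genes to 0.34, 12 were higher and 15 lower. The largest differences were those of CTSH and CTSZ, both cysteine proteases, and of GRN, the progranulin precursor. CTSH ranged from 0.656 to 2.12 nCPM in Z138 (median 1.50) and from 20.7 to 147 in JEKO-1 (median 51.2), a difference of -4.80 (SE 0.36, limma adjusted p = 4.29e-12). CTSZ ranged from 19.4 to 36.8 nCPM in Z138 and from 179 to 693 in JEKO-1, and differed by -3.42. GRN ranged from 9.54 to 47.1 in Z138 and from 177 to 333 in JEKO-1, and differed by -3.19. None of these 3 pairs of ranges overlapped. GPNMB, OPTN and TFEB were also lower in Z138, with differences of -2.40, -2.28 and -1.81, and TFE3 with -0.63. TFEB ranged from 32.4 to 49.5 nCPM in Z138 and from 70.3 to 250 in JEKO-1, without overlap.

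GAA, FLCN and ULK1 were higher in Z138 than in JEKO-1, by 2.44, 2.19 and 2.15 (limma adjusted p = 5.88e-10, 1.23e-08 and 7.06e-08). FLCN, the partner of FNIP1, ranged from 57.3 to 197 nCPM in Z138 and from 12.3 to 34.6 in JEKO-1. ULK1 ranged from 126 to 518.5 nCPM in Z138 and from 38.1 to 72.8 in JEKO-1. JEKO-1 in turn had 7 genes higher and 13 lower than MINO-P (limma), where 24.5% and 15.6% of all genes were (40.1% in either direction). With CPM as deposited 4 were higher and 21 lower. That scale includes mitochondrial reads, 60.7% and 59.1% in the JEKO-1 IBR_CLF libraries, and lowers every non-mitochondrial gene there. ATP6V1A, UVRAG, CTSB and TFEB were higher in JEKO-1, by 1.52, 1.15, 1.08 and 1.03, and GPNMB and ATG9A by 0.93 and 0.67. ATP6V1A ranged from 127 to 298 nCPM in JEKO-1 and from 32.7 to 96.3 in MINO-P, without overlap. FLCN and GAA were lower in JEKO-1, each with a difference of -1.39, followed by ATP6AP1, NPC2, RRAGD and ATP6V0E1 with -1.24, -1.16, -1.12 and -1.11. MCOLN1 and RRAGC were lower too, with -0.61 and -0.49.

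Whether a treatment acted differently between lines was tested for 2 pairs, and other pairs were not tested. The IBR response of JEKO-1 minus that of Z138 differed from 0 for none of the 44 genes (limma over 14373 genes and 8 libraries), nor for any other gene (0%). The unadjusted p was under 0.05 for 4 of the 44 and for 938 of all 14373 genes. RRAGD had the lowest p, with a difference of 1.58 (SE 0.46, unadjusted p = 0.00712, limma adjusted p = 0.519), the gene whose Z138 groups overlapped above. For GABARAPL1 the difference was -2.29, with a 95% interval from -4.02 to -0.56 and a limma adjusted p of 0.624. The BTZ response of JEKO-1 minus that of the MINO lines (limma over 14418 genes) also passed for none and for 0% of all genes. At an unadjusted p under 0.05 there were 0 of the 44 and 220 of all genes. The GPNMB difference there was 2.79 with an SE of 2.90, from JEKO-1 libraries at 169.7, 176 and 3.91 nCPM. Without replicate 3 it was 4.50 with an SE of 0.54 (limma adjusted p = 0.106), still with 0 of the 44 past the threshold.

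Of 97 further lysosome, autophagy and nutrient-sensing genes, 95 were tested. Under IBR 17 rose and 1 fell (limma), where 4.37% and 6.39% of all genes did, and 23 rose and 1 fell without JEKO-1 BTZ replicate 3. The autophagy receptor NBR1 rose by 1.25, the V-ATPase subunit ATP6V0A1 by 1.97 and the sialidase NEU1 by 1.76, and LAPTM5, a lysosomal membrane protein of blood cells, fell by 1.52. Under BTZ 19 rose and 4 fell, where 4.87% and 13.8% of all genes did, and 25 rose and 6 fell without that replicate. SESN3, a nutrient sensor, rose by 1.97 (1.86 without it), RB1CC1, of the ULK1 complex, by 1.51 (1.42), and MLST8, of mTORC1, had a difference of -1.33 (-1.22). Under YM155 6 rose, where 0.738% of all genes did, and 14 rose and 1 fell without that replicate. With all libraries NEU1 rose by 1.78 and ATG14, of the kinase complex that starts vesicles, by 1.51. Under CLF and S63845 0 of the 95 passed.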

How the data were processed

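The table holds 21596 entries in 56 libraries, 1 of them without a name (at most 0.000773% of a library) and left out. Per the submitters' processing notes, Partek and hg38 were used; the aligner, counter and annotation are not given in the sources used here. The deposited values are on a log2 scale, log2(CPM + 1) as checked on the values: back-transformed, they sum to between 999984 and 1.00001e+06 per library. Of these values, 79.8% to 89.2% per library are whole reads (tolerance 0.05), too few for a count test. Here CPM was rescaled to the 21580 non-mitochondrial genes and log2(nCPM + 1) was tested with limma 3.58.1 (R 4.3.3, trend), keeping genes at 1 CPM or more in at least 2 libraries of a fit, with Benjamini-Hochberg adjustment over all genes tested and a threshold of 0.05. The treatment fit held all 56 libraries with terms for treatment, line and naming series; the line fit held 29 libraries, and each fit of a difference in response held 8. The genes given values by library are the up to 6 largest rises and falls per comparison among those that passed, and always GPNMB, SQSTM1, TFEB, TFE3, MITF, MCOLN1, RRAGC, RRAGD, MAP1LC3B and GABARAPL1; the members, lists and tests were chosen with earlier results of these data known. Simulated data, in which libraries varied independently, were run through the fits of BTZ, IBR and YM155 against CON. The same was done for Z138 against JEKO-1, MINO-VR against MINO-P and the IBR difference in response. The other comparisons were not simulated, and no detection or error rate is given here. Depth sets 3 reads at 0.139 to 0.543 CPM; this floor covers counting error only. Over the 44 members tested, 8 replicate pairs whose names differ by a final a differed by a median of 0.0854 to 0.248 log2 units and 10 other pairs by 0.247 to 2.19, with 5 Z138 pairs (final A) at 0.254 to 0.621; averaging pairs is among the alternatives. IBR_YM155, BTZ_YM155, IBR_S63845 and BTZ_S63845, with at most 1 library per line, were described but not tested. The change of 1 marker gene is not reported here.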

Additional observations from a re-analysis of the deposited data

Results flagged for a closer look

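The libraries of 4 combined treatments, at most 1 per line, entered no comparison, and each had most of the 44 genes above every CON library of its own line. The count was 40 in MINO-P IBR_YM155, where 49.5% of all genes were above. It was 38 in MINO-P IBR_S63845 (47.9%), 38 in MINO-P BTZ_YM155 (39%), 38 in MINO-VR BTZ_YM155 (34.3%) and 38 in MINO-VR BTZ_S63845 (38.6%). In Z138 IBR_YM155 it was 25 (30.9%), where a gene had to exceed 2 CON libraries. GPNMB was at 381 nCPM in MINO-P BTZ_YM155 and SQSTM1 at 5993 in MINO-VR BTZ_S63845. These libraries have no replicate, and no difference from the single agents was tested.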

How the results depend on the processing

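No called gene changed direction under any alternative run. The number of the 44 genes past the threshold moved as follows. These counts, and the earlier ones with CPM as deposited, are given without shares over all genes. They describe the fits, not the list. For BTZ against CON it was 16 with all libraries, 13 to 26 with 1 library left out (26 without JEKO-1 BTZ replicate 3), 9 in JEKO-1 and Z138 alone and 7 in Z138 alone. For IBR against CON it was 27, 16 without MINO-P, 16 without MINO-VR, 4 in JEKO-1 and Z138 alone and 0 in Z138 alone, and 20 to 30 with 1 library left out. For YM155 against CON it was 3, 0 to 17 with 1 library left out, 1 with CPM as deposited, 1 with same-named pairs averaged, 0 without MINO-P, 0 without MINO-VR, 0 in JEKO-1 and Z138 alone (8 without JEKO-1 BTZ replicate 3 too) and 0 in Z138 alone. For MINO-VR against MINO-P it was 5, 3 to 7 with 1 library left out, 3 with CPM as deposited and 1 with pairs averaged. For IBR against BTZ it was 17, 14 to 18 with 1 library left out, 11 with pairs averaged, 8 without MINO-VR, 3 without JEKO-1, 6 in JEKO-1 and Z138 alone (9 without replicate 3 too) and 0 in Z138 alone. Fits on fewer lines hold fewer libraries; otherwise the cause was not tested. The counts stayed at 0 for CLF, S63845, IBR_CLF, BTZ_CLF and both differences in response, at 16 to 25 for JEKO-1 against MINO-P and at 24 to 29 for Z138 against JEKO-1. With the name suffix as a replicate block the counts were 26 for IBR, 16 for BTZ, 3 for YM155 and 15 for IBR against BTZ; the suffix is only a shared name. Fits on fewer lines were chosen after seeing the data, except those on JEKO-1 and Z138 alone with all their libraries. The fits on JEKO-1 and Z138 without JEKO-1 BTZ replicate 3 were also chosen after seeing the data. So were the fits that leave out this replicate where it is in neither group. Calls were kept under each alternative run by 2 of 16 genes for BTZ (GABARAPL1 and TAX1BP1), 0 of 27 for IBR and 0 of 3 for YM155. For IBR against BTZ, 0 of 17 were kept. The line comparisons kept 1 of 5 for MINO-VR, 12 of 20 for JEKO-1 and 20 of 27 for Z138.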
